A study of Mus musculus with 8 samples.

Results

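Retinoic acid metabolism was followed through 8 genes of the mouse testis: the uptake receptor gene Stra6, the retinol dehydrogenase gene Rdh10, the retinal dehydrogenase genes Aldh1a1 and Aldh1a2, the breakdown enzyme gene Cyp26b1, the receptor genes Rara and Rarg, and the target gene Stra8. They were chosen by name as genes of retinoic acid synthesis, breakdown, reception and response, 8 of the 56748 gene identifiers in the count table. All 8 had counts in every library and all 8 passed the filter on low counts, which left 21805 genes for testing. RNA sequencing was done on total RNA of adult testis from 4 libraries labelled Ak9-/- and 4 labelled WT. AK9 is an adenylate kinase, and the study is about male fertility and how sperm move. No strain, age in weeks, knockout allele or targeted exon is stated in the labels, and no treatment is named for either group. Whether each library is a different animal is not stated, and the p-values below therefore measure only the spread among libraries, which may be technical.

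Retinoic acid is made from vitamin A in 2 oxidation steps inside the testis. STRA6 takes up retinol from its blood carrier, RDH10 oxidises retinol to retinal, and the ALDH1A enzymes oxidise retinal to retinoic acid. In the seminiferous tubule ALDH1A1 is known mainly from Sertoli cells, the somatic nurse cells, and ALDH1A2 from spermatocytes, while CYP26B1 degrades retinoic acid around the tubule. Retinoic acid binds nuclear receptors of the RAR family, of which RARA is known from Sertoli cells and RARG from spermatogonia. Its pulses drive spermatogonia to differentiate and switch on Stra8, which germ cells need to enter meiosis.

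The windows before the gene starts of Stra8 and Cyp26b1 are shown because both genes are known to respond to retinoic acid and because their levels stood on the same side of the wild-type mean in each library labelled knockout. Each sequence is the 250 bases before the start on the gene's strand, from RefSeq on GRCm38.p6, in which 7 of the 8 genes had an entry. Stra8 lies on chromosome 6, plus strand, with the window at chr6:34920698-34920947. Cyp26b1 lies on chromosome 6, minus strand, with the window at chr6:84593811-84594060. Capitals mark a match to 1 of 4 spellings of the receptor half-site (the consensus AGGTCA, its relative AGTTCA, then the spelling GGGTCA and last the spelling GGTTCA, on either strand).
Stra8: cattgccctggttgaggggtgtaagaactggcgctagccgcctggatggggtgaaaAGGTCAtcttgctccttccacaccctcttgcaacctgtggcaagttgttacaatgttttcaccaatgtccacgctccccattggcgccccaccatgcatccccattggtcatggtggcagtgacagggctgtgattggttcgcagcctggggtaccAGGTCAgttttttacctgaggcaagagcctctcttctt
Cyp26b1: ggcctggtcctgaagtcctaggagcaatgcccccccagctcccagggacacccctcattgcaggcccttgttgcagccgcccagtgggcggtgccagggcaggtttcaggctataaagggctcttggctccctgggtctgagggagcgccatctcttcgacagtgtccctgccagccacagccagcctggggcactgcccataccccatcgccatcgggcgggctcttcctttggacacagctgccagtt
The Stra8 window held AGGTCA 2 times on the gene's strand, beginning 194 and 38 bases before the start, and the Cyp26b1 window held none of the 4 spellings. Among all 32851 windows of the same length, 38.6% held at least 1 of the spellings 9.75% held 2 or more matches of any spelling and 1.36% held AGGTCA at least 2 times. Among the windows of the other genes, 1 of the 4 starts of Rara had 4 matches, 1 of the 2 starts of Rarg had 1 and 1 of the 2 starts of Aldh1a1 had 1. A match of these letters is not a measurement of receptor binding.

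None of the 8 genes differed between the libraries labelled knockout and wild type beyond the spread between libraries. Of all genes tested, 0.0183% passed edgeR's quasi-likelihood test (4 genes, all higher in the libraries labelled knockout), and 0 of the 8 did, with 1.00 as edgeR adjusted p for each. At an unadjusted p under 0.05 the shares were 3.04% of all genes tested and 0 of the 8, and with DESeq2 0.211% (46 genes, 23 higher and 23 lower) and 0 of the 8. The count over all genes depends on single libraries: edgeR called 33 without labelled knockout 1 (9 higher, 24 lower), 35 without labelled knockout 3 and 33 without labelled knockout 4. The 2 groups overlapped for all 8 genes, where 2.30% of all genes tested had groups that did not overlap (1.32% with the labelled knockouts below, 0.981% above). The log2 fold changes of labelled knockout over wild type ran from -0.23 (Stra8) to 0.16 (Rarg), with a median of 0.00 beside 0.01 over all genes tested. What varied was the single libraries. For 7 of the 8 genes the 4 labelled knockouts spread more widely than the 4 wild types, as did 84.9% of all genes tested. Labelled knockout 1 was below every wild type for 3 of the 8 genes and above for 2, beside 32.0% and 32.5% of all genes tested. These counts were 2 and 3 in labelled knockout 2 (26.4% and 26.3%), 2 and 4 in labelled knockout 3 (36.1% and 33.5%) and 4 and 1 in labelled knockout 4 (33.9% and 34.0%). With 8 genes, such shares are too coarse to set the genes apart from the rest.

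**Figure D1:**
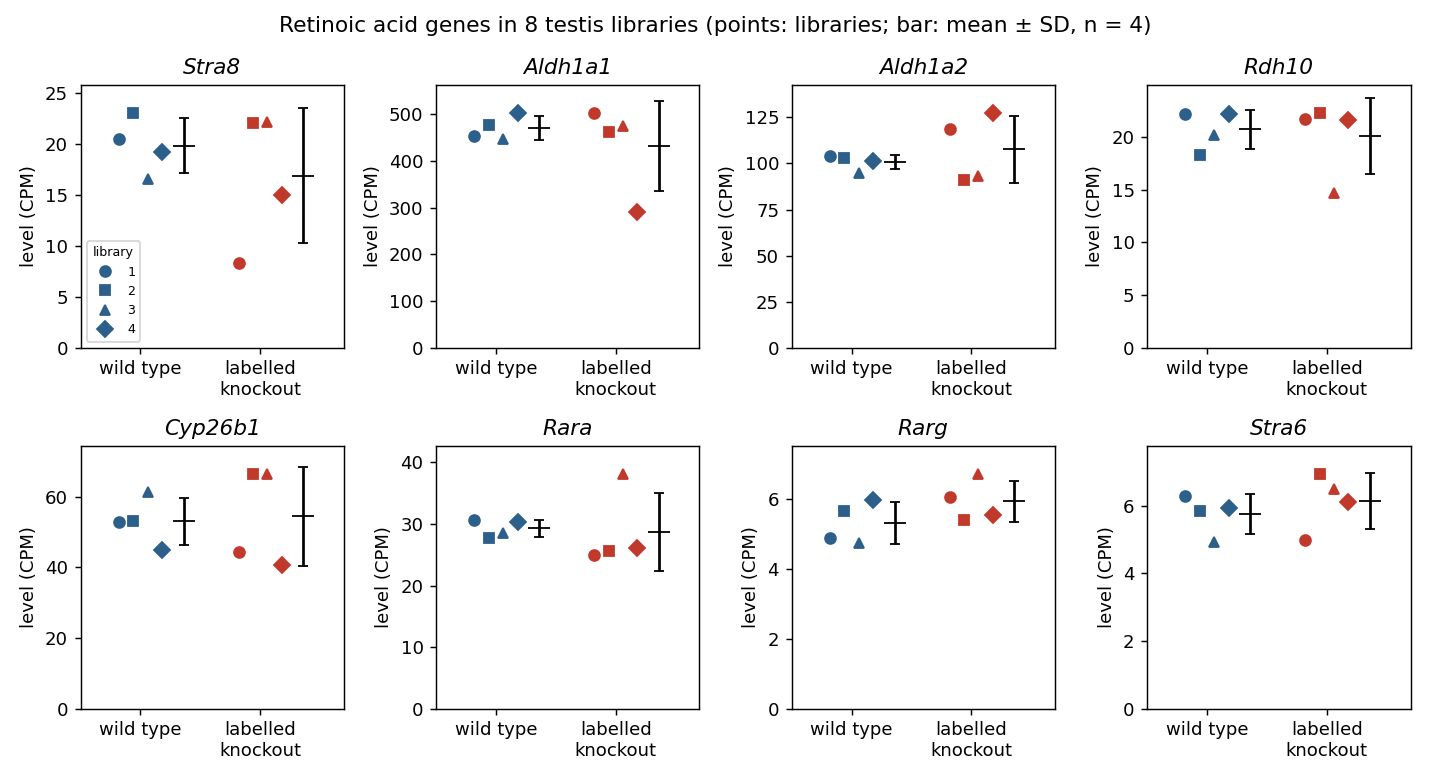
Levels of the 8 retinoic acid genes in CPM (each vertical axis from 0), with 1 point per library, marker shape for the library number and the mean ± SD of each group (n = 4) beside the points. Stra8 is lowest in labelled knockout 1 (8.29 CPM), and labelled knockout 4 (15.0 CPM) is also below every wild type. Aldh1a1 is lowest in labelled knockout 4 (290 CPM), and the other libraries labelled knockout lie within the wild-type range for Aldh1a1.

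Library totals were 18062780 to 24415587 counts. CPM values are counts relative to a common library total, after TMM, edgeR's correction for composition. The limit for a gene with no count is 0.121 to 0.175 CPM (3 counts, counting error only). Ak9 itself had 69.3, 116, 101 and 40.6 CPM from labelled knockout 1 to labelled knockout 4, and 107 to 122 CPM among wild types, a log2 fold change of -0.47 (SE 0.25, edgeR adjusted p = 1.00). In labelled knockout 2 its level was that of a wild type, so the gene's level did not follow the label there and groups are named by label. Gene totals cannot show a deletion of single exons. Markers of germ and somatic testis cells were present in all 8 libraries. Labelled knockout 3 stood apart, with spermatid lists at -0.70 and -0.85 and the Sertoli list at 0.48 on the log2 scale relative to wild type. The sum of 9 epididymis markers was 216 CPM there, 36.1 CPM in labelled knockout 4 and 4.25 to 7.80 CPM in the other libraries. Crisp1 was at 185 and Adam7 at 26.2 CPM in labelled knockout 3, and at 24.4 and 4.20 CPM in labelled knockout 4. Of the other markers in labelled knockout 3, Gpx5 and Cst11 were at 0 CPM. Lcn5, Lcn8, Lcn9 and Spint4 were at 0.0493 to 0.691 CPM there. Rnase10 was at 3.11 CPM there, below its 4.89 to 7.06 CPM in wild types.

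Stra8 was the most variable of the 8 genes among the labelled knockouts. Stra8 (ENSMUSG00000029848) reached 8.29, 22.0, 22.2 and 15.0 CPM in turn in labelled knockouts 1 to 4, against 20.5, 23.0, 16.5 and 19.1 CPM in wild types 1 to 4. Labelled knockouts 1 and 4 were below every wild type, and labelled knockouts 2 and 3 lay within the wild-type range. The level of labelled knockout 1, from 184 counts, was 41.9% of the wild-type mean, and its 95% exact Poisson interval of 7.14 to 9.58 CPM, which covers counting error only, ended below the 15.0 to 18.2 CPM of the lowest wild type. Labelled knockout 4 was at 75.7% of the wild-type mean, and its interval of 13.2 to 16.9 CPM overlapped that of the lowest wild type. The group means were 16.9 ± 6.62 and 19.8 ± 2.69 CPM (SD, n = 4 each). The log2 fold change was -0.23 (SE 0.26, 95% interval -0.81 to 0.34, edgeR adjusted p = 1.00), and the two-sided exact permutation p of the CPM was 0.514, where 0.0286 is the smallest possible. The log2 fold change was -0.0063 without labelled knockout 1, -0.40 without labelled knockout 3 and -0.48 in limma-voom with quality weights. The SD of log2 CPM was 0.64 among labelled knockouts, and 5.95% of the 19027 genes with a mean of at least 1 CPM had a larger one.

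MEIOSIN, the protein with which STRA8 acts at the start of meiosis, is encoded by a gene that was also lowest in labelled knockouts 1 and 4. Meiosin (ENSMUSG00000085601) reached 9.38, 20.2, 28.5 and 12.3 CPM in turn in labelled knockouts 1 to 4, against 21.1, 21.9, 16.99 and 17.9 CPM in wild types 1 to 4. Labelled knockouts 1 and 4 were again below every wild type, but here labelled knockout 3 was above every wild type. The root mean square difference between the Stra8 and Meiosin profiles, each taken as log2 level relative to its wild-type mean, was 0.18 over 8 libraries. The smallest such differences to Stra8 among 14327 named genes were 0.15 for Grik3, a glutamate receptor gene, 0.16 for Zfp984, a zinc finger gene, and 0.17 for Vps13c, a lipid transfer protein gene. Meiosin carries a predicted-gene name in the annotation used for names, so it was not among those 14327. It was set beside Stra8 for its known role and after its values were seen. How many named genes lay nearer to Stra8 than Meiosin was not counted, so the 0.18 gives it no rank.

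Germ cell genes linked to retinoic acid or to Stra8 were counted as a list of 18, Meiosin among them, all tested. None passed edgeR's test in either direction (0 at an unadjusted p under 0.05, 0 with DESeq2), 7 had a log2 fold change below 0 and 11 above, and the median was 0.02. The 3 with the smallest p were Sall4, a spermatogonial transcription factor gene, at 4.31 ± 1.45 against 5.34 ± 0.402 CPM (labelled knockout against wild type, SD, n = 4 each), Ccnd2, a cyclin gene, at 10.9 ± 4.55 against 8.64 ± 1.16 CPM, and Dmc1, a meiotic recombinase gene, at 22.5 ± 6.99 against 26.6 ± 2.33 CPM. By library, 9 of the 18 were below every wild type in labelled knockout 1 and 9 in labelled knockout 4, where 32.0% and 33.9% of all genes tested were. In each of these 2 libraries 4 of the 18 were above every wild type, beside 32.5% and 34.0%. In labelled knockout 2, 6 were below and 3 above, beside 26.4% and 26.3%. In labelled knockout 3, 9 of the 18 were above every wild type and 4 below, beside 33.5% and 36.1% of all genes tested.

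Single genes of that list, named after their values were seen, show both directions. Kit, the receptor that marks differentiating spermatogonia, was at 29.9 and 23.5 CPM in labelled knockouts 1 and 4, at 38.6 and 51.8 CPM in labelled knockouts 2 and 3 and at 35.8 to 46.5 CPM in the wild types. Rec8, a meiotic cohesin gene that is also a target of retinoic acid, had the opposite order, at 72.9 and 77.2 CPM in labelled knockouts 1 and 4, at no more than 47.7 CPM in labelled knockouts 2 and 3 and at 42.1 to 57.5 CPM in the wild types. Stra8 and Rec8 thus lay on opposite sides of the wild-type mean in each of the 4 libraries labelled knockout.

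Markers of the cell types that express Stra8 followed it in some libraries and not in others. In bulk tissue, fewer cells of a type and less RNA per cell cannot be told apart. Relative to the wild-type mean on the log2 scale, the list of 7 markers of differentiating spermatogonia had values of -0.28, -0.08, 0.23 and -0.37 across labelled knockouts 1 to 4, and the list of 9 early meiotic markers at -0.15, 0.04, 0.23 and -0.22. Stra8 was at -1.20, 0.16, 0.17 and -0.38 in the same libraries. The difference between Stra8 and the differentiating spermatogonia list was -0.01 in labelled knockout 4, -0.92 in labelled knockout 1 and between -0.20 and 0.14 in the wild types. By the mean log2 value, Stra8 was as far below wild type as those markers in labelled knockout 4 and further below in labelled knockout 1. In labelled knockout 2 the list was at -0.08 and Stra8 at 0.16, on opposite sides of the wild-type mean. Elongating spermatid markers were at 0.40 and 0.48 in labelled knockouts 1 and 4. None of these markers was at 0 in all libraries and 0 of the 7 and 0 of the 9 passed edgeR's test. The summed level of the 7 was 603 to 694 CPM in libraries labelled knockout and 619 to 666 CPM in wild types. It was 694 CPM in labelled knockout 4 and 653 CPM in labelled knockout 1, but most of it was Dmrtb1. Dmrtb1 was at 570 and 517 CPM in those libraries and at 449 to 493 CPM in wild types. Kit, Sohlh2, Dmrt1, Uchl1 and Lin28a were below every wild type in both, and Sohlh1 in labelled knockout 1 only. The sum therefore does not show the level of the list as a whole. The summed level of the 9 was 1563 to 1777 CPM and 1463 to 1797 CPM. Of these markers, 5 of the 7 and 5 of the 9 are also among the 18 germ cell genes. The part of the cell makeup in the Stra8 level was not tested.

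**Figure D2:**
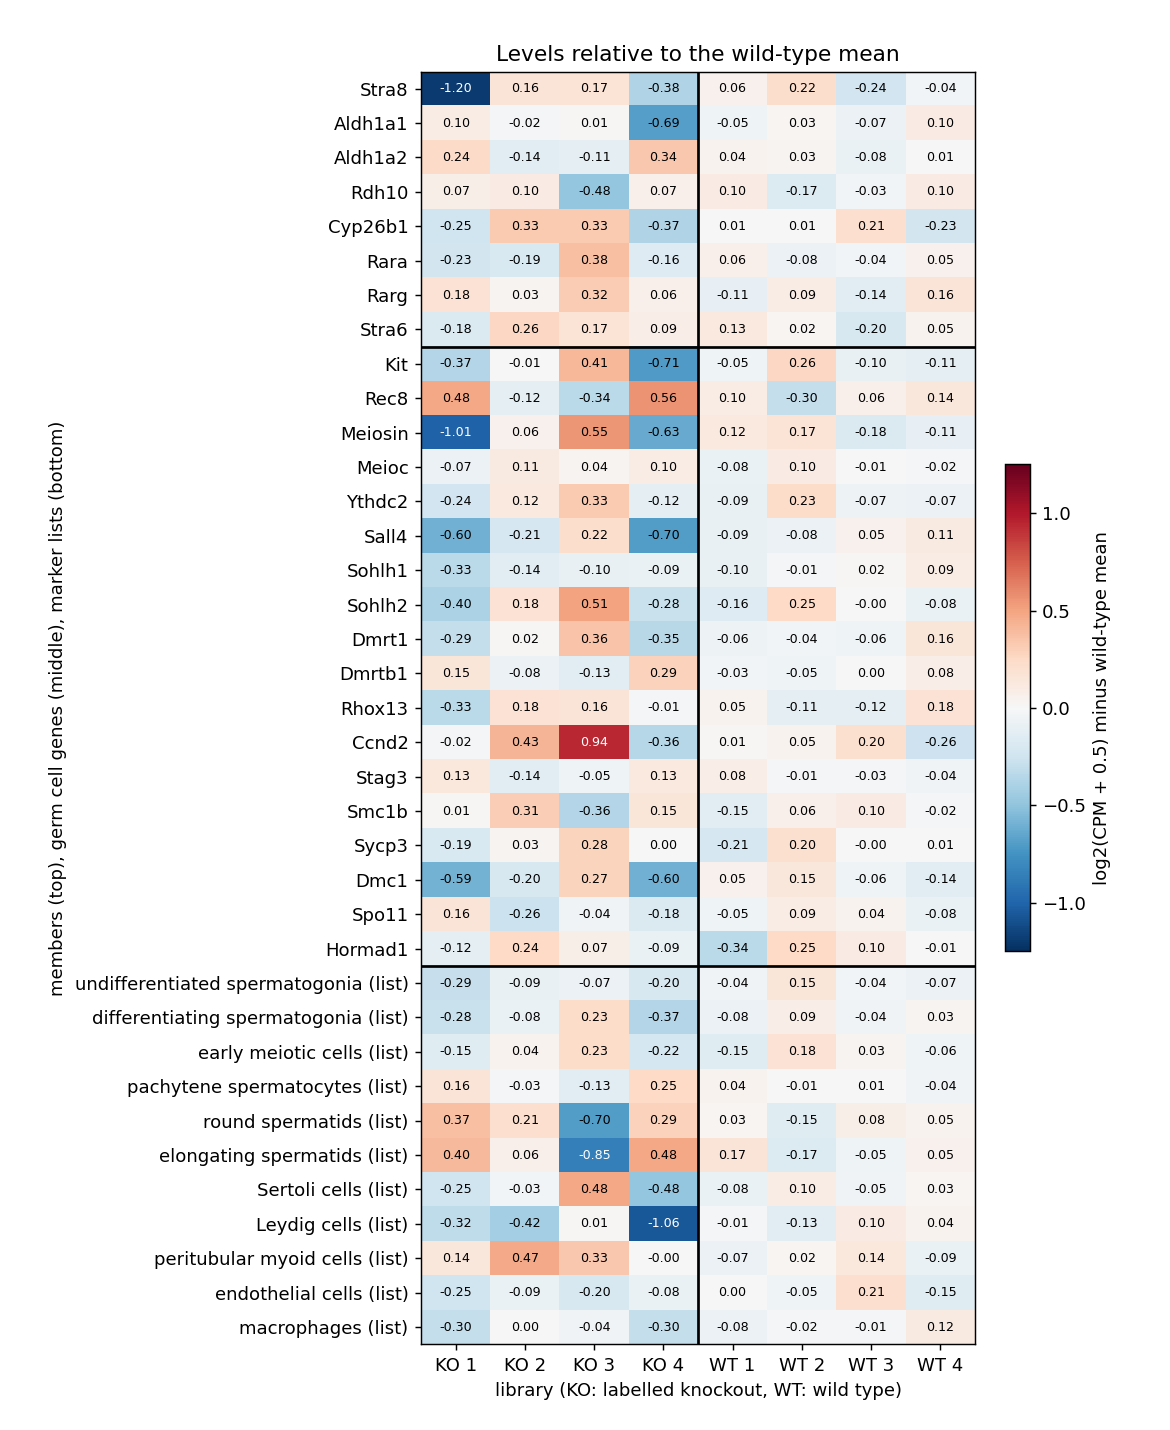
Log2(CPM + 0.5) minus the wild-type mean in each of the 8 libraries for the 8 retinoic acid genes, the 18 germ cell genes and 11 marker lists (mean over the list's genes), with the value in each cell. Stra8 (-1.20) and Meiosin (-1.01) have the lowest values of the upper and middle blocks, both in labelled knockout 1, and the Leydig list is lowest of the lower block in labelled knockout 4 (-1.06).

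Among the synthesis genes, Aldh1a1 (ENSMUSG00000053279), whose enzyme oxidises retinal in Sertoli cells, reached 501, 462, 473 and 290 CPM in turn in labelled knockouts 1 to 4, against 452, 477, 446 and 502 CPM in wild types 1 to 4. The first 3 labelled knockouts lay within the wild-type range and labelled knockout 4 was below every wild type, at 61.8% of their mean from 4974 counts. The group means were 432 ± 95.8 and 469 ± 25.47 CPM (SD, n = 4 each), with a log2 fold change of -0.12 (SE 0.16, edgeR adjusted p = 1.00). Without labelled knockout 4 the log2 fold change was 0.028, so the side of 0 rests on that library. The Sertoli list was at -0.48 and the Leydig list at -1.06 in labelled knockout 4, beside -0.69 for Aldh1a1. The 13 Sertoli markers summed to 1490 to 2775 CPM in libraries labelled knockout and 1950 to 2167 CPM in wild types, the 8 Leydig markers to 855 to 1864 and 1675 to 1992 CPM, and none was at 0 in all libraries. Their part in the Aldh1a1 level was not tested. In labelled knockout 3 the Sertoli list was at 0.48 and Aldh1a1 at 0.01, so the gene did not follow those markers there. Rhox5, a Sertoli cell homeobox gene that is also in the Sertoli list, had the profile nearest to Aldh1a1 (root mean square difference 0.07), at 9.74 CPM in labelled knockout 4 and 15.9 to 19.1 CPM in the other libraries.

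Aldh1a7 is the close relative with which Aldh1a1 could share reads. In GENCODE M21 the transcripts are 89.1% identical over 2072 bases, and no other gene aligned to any of the 8 at 85% identity or more over at least 100 bases. Aldh1a7 was at 19.3 ± 2.55 CPM in libraries labelled knockout and 24.8 ± 4.29 CPM in wild types (SD, n = 4 each). Its log2 fold change was -0.36 (SE 0.15, edgeR unadjusted p = 0.0348 and adjusted p = 1.00). Aldh1a7 had 292 to 728 counts per library and Aldh1a1 4974 to 11118, and how reads matching both were assigned is not stated, so the Aldh1a7 value is uncertain.

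Aldh1a2 (ENSMUSG00000013584), the retinal dehydrogenase gene of germ cells, showed another order of libraries. It reached 119, 91.0, 93.5 and 127 CPM in turn in labelled knockouts 1 to 4, against 104, 103, 95.1 and 101 CPM in wild types 1 to 4. Labelled knockouts 1 and 4 were above every wild type and labelled knockouts 2 and 3 below every wild type. The group means were 108 ± 18.1 and 101 ± 3.97 CPM (SD, n = 4 each), and the log2 fold change was 0.09 (SE 0.12, edgeR adjusted p = 1.00). It was 0.0036 without labelled knockout 4, 0.038 without labelled knockout 1 and 0.15 without labelled knockout 2. The gene stayed close to the list of 7 pachytene spermatocyte markers: the difference between them was 0.08, -0.12, 0.02 and 0.09 log2 units in the libraries labelled knockout and between -0.09 and 0.05 in the wild types. The 7 markers summed to 1330 to 1615 CPM in libraries labelled knockout and 1407 to 1452 CPM in wild types, and their part in the Aldh1a2 level was not tested. Ptpdc1, a phosphatase gene, had the nearest profile, with a root mean square difference of 0.03.

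The balance of these 2 isozymes differed in 1 library. Per kilobase of exons, Aldh1a2 over Aldh1a1 was 0.517, 0.430 and 0.431 in labelled knockouts 1 to 3, 0.957 in labelled knockout 4 and 0.469 ± 0.0248 in wild types (SD, n = 4). The groups overlapped. In labelled knockout 4 Aldh1a1 was lower and Aldh1a2 higher than in any wild type. The size of the ratio depends on the length used: per kilobase of the longest transcript it was 0.457 in labelled knockout 4 (Aldh1a1 123, Aldh1a2 56.2 CPM per kilobase), 0.205 to 0.247 in the other labelled knockouts and 0.210 to 0.239 in wild types.

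Rdh10 (ENSMUSG00000025921), which encodes the first enzyme of the path, reached 21.7, 22.2, 14.7 and 21.6 CPM in turn in labelled knockouts 1 to 4, against 22.2, 18.3, 20.1 and 22.2 CPM in wild types 1 to 4. Labelled knockout 3 was below every wild type. Labelled knockout 2 was just above every wild type (22.24 CPM, beside 22.20 CPM in the highest), and labelled knockouts 1 and 4 lay within the range. The group means were 20.1 ± 3.61 and 20.7 ± 1.86 CPM (SD, n = 4 each). The log2 fold change was -0.05 (SE 0.15, edgeR adjusted p = 1.00), and it was 0.067 without labelled knockout 3. Round spermatid markers were at -0.70 in that library, beside -0.48 for Rdh10. In labelled knockouts 1, 2 and 4 they were at 0.37, 0.21 and 0.29, beside 0.07, 0.10 and 0.07 for Rdh10. The 7 markers summed to 647 to 1330 CPM in libraries labelled knockout and 939 to 1083 CPM in wild types. The Sertoli list was at -0.25, -0.03, 0.48 and -0.48 in labelled knockouts 1 to 4, on the other side of the wild-type mean from Rdh10 in each. The part of spermatid or Sertoli content in the Rdh10 level was not tested. The nearest profile was that of Oit1, with a root mean square difference of 0.06.

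Stra6 (ENSMUSG00000032327), the gene of the retinol uptake receptor, was the lowest of the 8 per kilobase of exons in wild types, and Rarg was the lowest per kilobase of the longest transcript. It reached 5.004, 6.95, 6.51 and 6.12 CPM in turn in labelled knockouts 1 to 4, against 6.31, 5.84, 4.93 and 5.95 CPM in wild types 1 to 4. Labelled knockouts 2 and 3 were above every wild type and the others lay within the range. These are 105 to 144 counts per library, with wide counting error: in wild type 1 the 95% exact Poisson interval was 5.22 to 7.55 CPM. Labelled knockouts averaged 6.15 ± 0.833 CPM and wild types 5.76 ± 0.584 CPM (SD, n = 4 each). The log2 fold change was 0.10 (SE 0.17, edgeR adjusted p = 1.00), 0.019 without labelled knockout 2, 0.027 without wild type 3, 0.054 without labelled knockout 3 and 0.18 without labelled knockout 1. Lsm8, an RNA-processing gene, had the nearest profile, at 0.06.

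Cyp26b1 (ENSMUSG00000063415), whose enzyme clears retinoic acid, reached 44.3, 66.3, 66.5 and 40.6 CPM in turn in labelled knockouts 1 to 4, against 53.0, 53.0, 61.2 and 45.0 CPM in wild types 1 to 4. Labelled knockouts 1 and 4 were below every wild type and labelled knockouts 2 and 3 above every wild type. The means were nearly equal, at 54.4 ± 13.9 and 53.1 ± 6.61 CPM (SD, n = 4 each), with a log2 fold change of 0.04 (SE 0.17, edgeR adjusted p = 1.00). The side of 0 turned without labelled knockout 2 or 3 or wild type 4. On the log2 scale the 7 peritubular myoid markers were at 0.14, 0.47 and 0.33 in labelled knockouts 1, 2 and 3 and near 0 in labelled knockout 4, beside -0.25, 0.33, 0.33 and -0.37 for Cyp26b1. They summed to 154 to 243 CPM in libraries labelled knockout and 154 to 193 CPM in wild types, and their part in the Cyp26b1 level was not tested. The nearest profile was that of Rap2c, a small GTPase gene, at 0.08.

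Synthesis set against breakdown gave no separation of the groups. Per kilobase, the ratio of Aldh1a1 to Cyp26b1 had the values 12.3, 7.54, 7.72 and 7.75 across labelled knockouts 1 to 4, against 9.26, 9.75, 7.90 and 12.1 for the wild types. The highest labelled knockout for this ratio, labelled knockout 1, was the library with the lowest Stra8. Wild type 4 had nearly the same ratio with Stra8 at 19.1 CPM. Labelled knockout 4, the next lowest for Stra8 (15.0 CPM), had a ratio of 7.75. A link between the ratio and Stra8 was not tested. Transcript ratios do not measure the amount of retinoic acid.

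Of the receptors, Rara (ENSMUSG00000037992) reached 24.9, 25.6, 38.1 and 26.1 CPM in turn in labelled knockouts 1 to 4, against 30.6, 27.7, 28.5 and 30.4 CPM in wild types 1 to 4. Labelled knockout 3 was above every wild type and the other 3 were below every wild type. Labelled knockouts averaged 28.7 ± 6.32 CPM and wild types 29.3 ± 1.41 CPM (SD, n = 4 each). The log2 fold change was -0.03 (SE 0.14, edgeR adjusted p = 1.00), -0.21 without labelled knockout 3 and 0.031 without labelled knockout 1, and it also lay above 0 without labelled knockout 2 or 4. The Sertoli list had its highest value in the same library (0.48, beside 0.38 for Rara), and its part in the Rara level was not tested. In labelled knockout 2 the list was at -0.03 and Rara at -0.19, and in labelled knockout 4 they were at -0.48 and -0.16. Rara minus the list was 0.02, -0.15, -0.10 and 0.32 in labelled knockouts 1 to 4. It was between -0.18 and 0.14 in the wild types. Slc25a23, a mitochondrial carrier gene, had the nearest profile, at 0.03.

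Rarg (ENSMUSG00000001288) was the steadiest of the 8 genes among the labelled knockouts. It reached 6.04, 5.40, 6.71 and 5.54 CPM in turn in labelled knockouts 1 to 4, against 4.86, 5.66, 4.73 and 5.95 CPM in wild types 1 to 4. Labelled knockouts 1 and 3 were above every wild type and the others lay within the range. Labelled knockouts averaged 5.92 ± 0.592 CPM and wild types 5.30 ± 0.595 CPM (SD, n = 4 each). The SD of log2 CPM was 0.13 among labelled knockouts and 0.15 among wild types. The log2 fold change of 0.16 (SE 0.16, edgeR adjusted p = 1.00) was the largest upward one of the 8, and it was 0.084 without labelled knockout 3. On the log2 scale Rarg was at 0.18, 0.03, 0.32 and 0.06 in labelled knockouts 1 to 4. The list of 9 markers of undifferentiated spermatogonia was at -0.29, -0.09, -0.07 and -0.20 there, on the other side of the wild-type mean. Their part in the Rarg level was not tested. Cars, a transfer RNA synthetase gene, had the nearest profile, at 0.04. Per kilobase, Rara exceeded Rarg 4.70 ± 0.631 times in libraries labelled knockout and 5.45 ± 0.663 times in wild types (SD, n = 4 each), with overlapping groups.

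The 95% intervals of the fold changes show how large a difference the edgeR fit leaves room for. The interval was widest for Stra8, from 0.572-fold to 1.27-fold of wild type. It was 0.719 to 1.18 for Aldh1a1, 0.886 to 1.29 for Aldh1a2, 0.773 to 1.21 for Rdh10, 0.788 to 1.33 for Cyp26b1, 0.788 to 1.22 for Rara, 0.874 to 1.43 for Rarg and 0.828 to 1.38 for Stra6. A 2-fold difference of the group means lay outside each of these 8 edgeR intervals, which are not adjusted for the number of genes. The fit assumes 1 spread per gene for both groups. For Stra8 the SD of log2 CPM was 0.64 among labelled knockouts and 0.19 among wild types. The ratio of the first SD to the second was 3.33 for Stra8, 4.69 for Aldh1a1, 4.21 for Aldh1a2 and 4.17 for Rara. It was 2.17 for Rdh10, 2.08 for Cyp26b1, 1.35 for Stra6 and 0.883 for Rarg. The intervals do not take such inequality into account. A 2-fold difference is therefore not excluded by them for Stra8 or for the other genes with unequal spread.

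The order of levels per length in wild types began with the retinal dehydrogenases. Aldh1a1 had 95.1 ± 5.16 CPM per kilobase of exons and Aldh1a2 had 44.5 ± 1.75 (SD, n = 4 throughout). Stra8 at 10.97 ± 1.49 and Cyp26b1 at 9.92 ± 1.24 followed, and their libraries overlapped. Rara had 6.71 ± 0.324, Rdh10 4.98 ± 0.448, Rarg 1.24 ± 0.140 and Stra6 0.988 ± 0.100, and the libraries of these neighbours did not overlap. Lengths came from GENCODE M21. With the longest transcript in place of all exons, Cyp26b1 came before Stra8 (11.8 against 10.97) and Stra6 before Rarg (1.87 against 1.80).

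**Figure D3:**
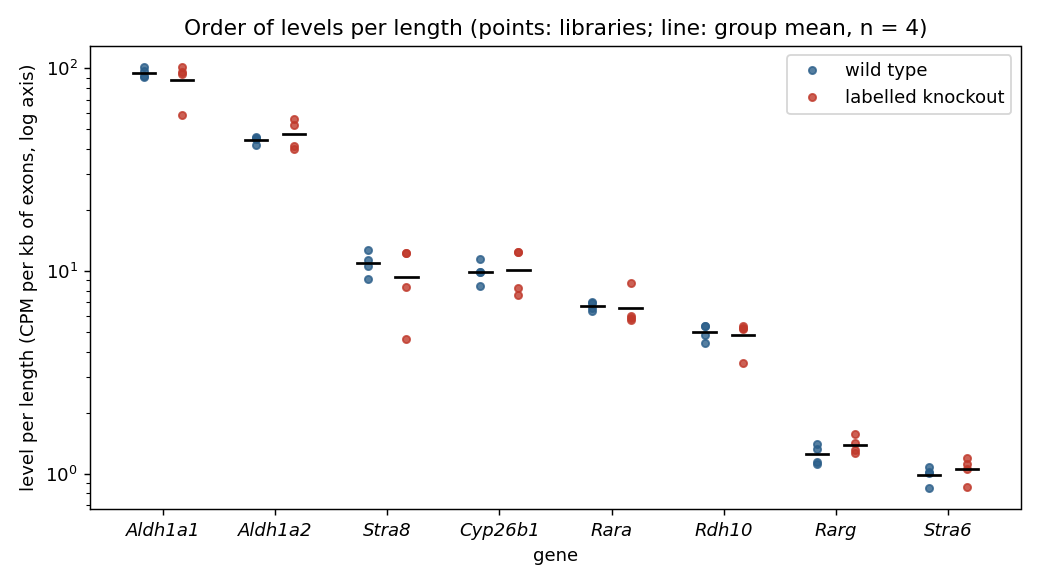
Level per length (CPM per kilobase of exons, log axis) of the 8 genes in wild types and libraries labelled knockout, with 1 point per library and a line at the group mean (n = 4). Aldh1a1 and Aldh1a2 stand highest, and in 1 library labelled knockout, number 4, they are at 58.7 and 56.2 per kilobase of exons (123 and 56.2 per kilobase of the longest transcript).

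The rest of the retinoid pathway was examined as 66 further genes, of which 56 passed the filter on low counts. None of the 56 passed edgeR's test in either direction, beside 0.0183% of all genes tested. At an unadjusted p under 0.05 there was 1 of 56, and DESeq2 called 0, with the shares over all genes as above. Of the 56, 35 had a log2 fold change below 0 and 21 above, with a median of -0.02, and 47.1% of all genes tested were below 0. The median was -0.14 without labelled knockout 3 and 0.017 without labelled knockout 1. The groups did not overlap for 1 of the 56, where 2.30% of all genes tested had groups that did not overlap. That gene was Adh7, a retinol-oxidising alcohol dehydrogenase gene, with 5.72, 4.82, 4.39 and 4.72 CPM across the labelled knockouts, against 3.47, 4.18, 4.37 and 4.10 CPM for the wild types. Its log2 fold change was 0.29 (SE 0.17, edgeR adjusted p = 1.00).

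Among carriers and storage genes, 8 of 11 were tested, 5 were below 0 and 3 above, and the median was -0.07. Crabp1, which binds retinoic acid in the cytoplasm, was at 5.67 ± 1.06 against 6.69 ± 1.39 CPM, Retsat, which saturates retinol, at 27.3 ± 7.73 against 31.3 ± 1.18, and Stra6l, a relative of Stra6, at 0.974 ± 0.408 against 1.13 ± 0.287 (labelled knockout against wild type, SD, n = 4 each). Of the retinol and retinal enzymes, 14 of 20 were tested, 10 were below 0 and 4 above, and the median was -0.04. Beside Adh7, the smallest p were those of Adh4, another alcohol dehydrogenase gene, at 8.42 ± 2.98 against 10.8 ± 1.06 CPM, and of Bco1, which cleaves beta-carotene to retinal, at 28.1 ± 11.1 against 36.7 ± 4.23 CPM. Bco1 was at 15.0 CPM in labelled knockout 3 and at 22.8 to 37.8 CPM in the other libraries labelled knockout.

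The 3 other aldehyde dehydrogenase genes all had log2 fold changes below 0, at -0.36 for Aldh1a7, -0.30 for Aldh1a3 and -0.01 for Aldh8a1. Of the other breakdown genes, Cyp26a1 was at 1.26 ± 0.423 against 1.60 ± 0.386 CPM and Cyp2s1 at 1.60 ± 0.553 against 2.08 ± 0.273 CPM, and Cyp26c1 stayed under the filter. Cyp26a1 had 19 to 38 counts per library. The receptors and co-regulators (11 of 11 tested) had 8 below 0 and 3 above, with a median of -0.01. Rxra, a partner of the RAR receptors, was at 43.3 ± 3.65 against 49.99 ± 3.57 CPM, with a log2 fold change of -0.21 (SE 0.10, edgeR adjusted p = 1.00). Rxrb was at 35.6 ± 5.27 against 32.8 ± 1.30 CPM, and Nrip1, a co-repressor gene, at 19.7 ± 1.77 against 17.5 ± 1.43 CPM.

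**Figure D4:**
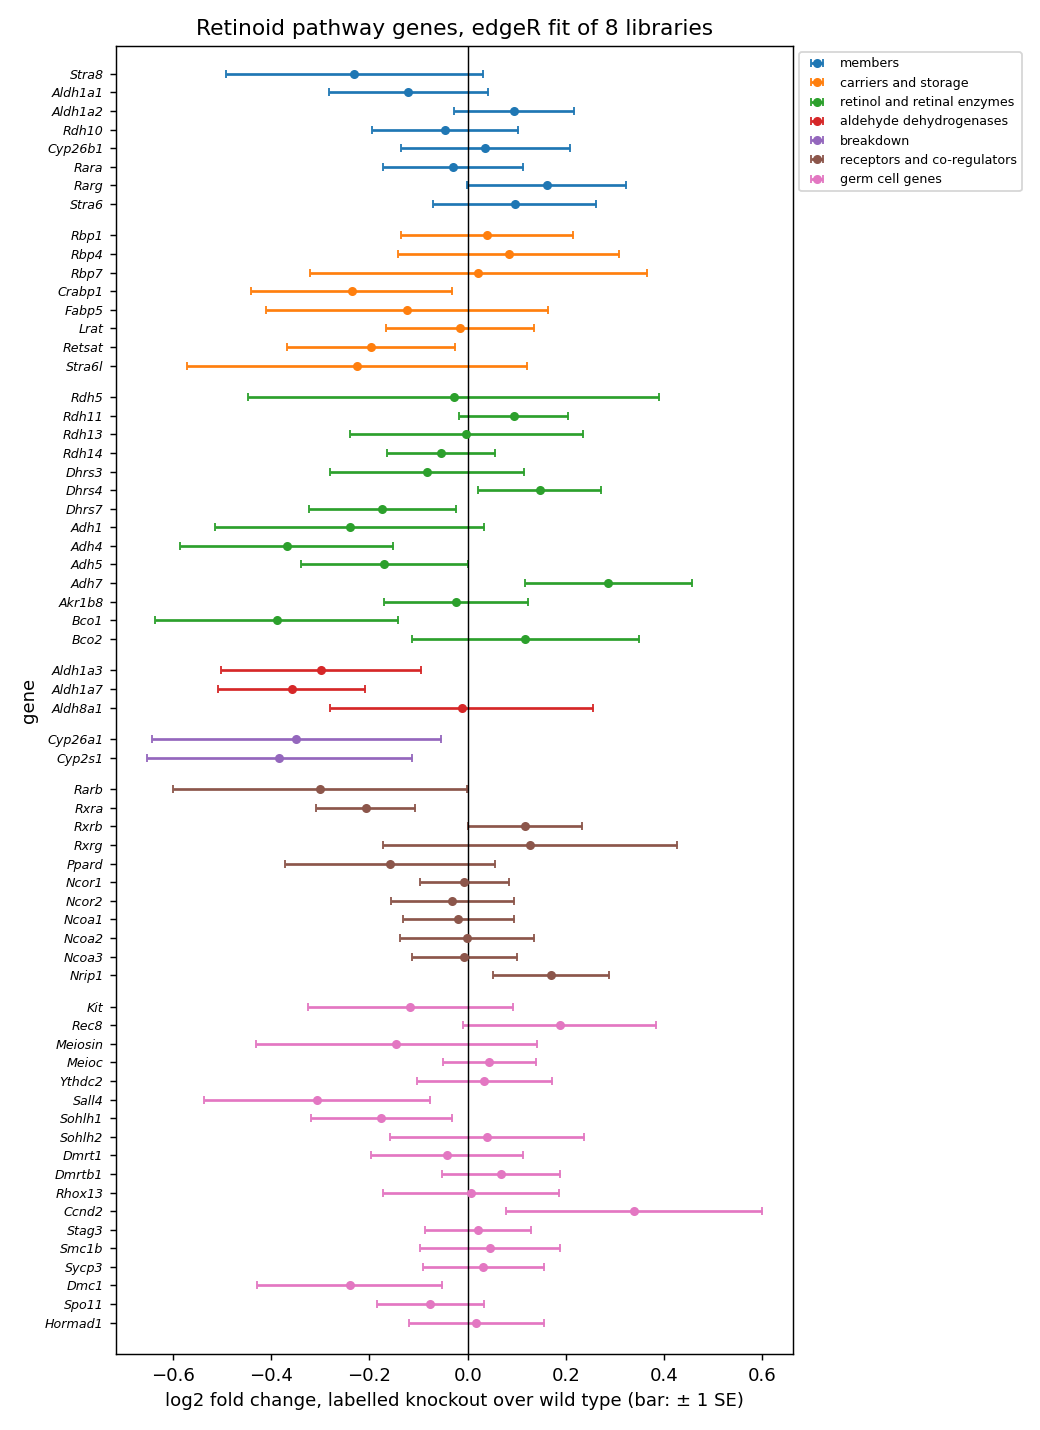
Log2 fold change of labelled knockout over wild type with ± 1 SE for the 8 retinoic acid genes and the 56 tested pathway genes, from the edgeR fit of 8 libraries, coloured by list. Values run from -0.39 (Bco1) to 0.34 (Ccnd2), and none passed the threshold.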

How the data were processed

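The authors deposited 1 table of unnormalized read counts by Ensembl gene identifier. The submitters' processing notes name Trimmomatic, STAR, featureCounts and DESeq2, and the builds GRCm39 and mm39. Not given in the sources used here are tool versions, annotation release, strandedness of the counting and the handling of multiply matching reads. TRIzol extraction, DNase treatment and a TruSeq kit are named, per the labels' protocols. Each column matched 1 sample title (0 unmapped columns).

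Symbols came from GENCODE M21 (52125 of 56748 identifiers matched). That annotation is on GRCm38, so it served for names, exon lengths, overlaps and copies (blastn 2.17.0) and not for positions. Meiosin was found through a RefSeq synonym. No other gene shared exon bases with the 8 genes in it.

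Genes were filtered with filterByExpr (minimum count 10, minimum total 15), scaled by TMM and tested by quasi-likelihood in edgeR (version 4.0.16, with R 4.3.3 and limma 3.58.1) over all 8 libraries without covariates, with Benjamini-Hochberg adjustment over all 21805 genes and a threshold of 0.05. Each SE was derived by dividing the absolute log2 fold change by the square root of the F statistic. Log2 levels use a pseudocount of 0.5, and list values are means over the list. Likeness was sought among named genes of at least 1 CPM. From each pathway list the 3 genes with the smallest p are named, and other names were added after their values were seen. The genes and lists were chosen with earlier results of these data known. Alternatives were a replicate block, RLE size factors, 2 other low-count filters, DESeq2 1.42.0, limma-voom with and without quality weights, and leaving out each library. No library was a copy of another (lowest within-group chi-square 4.59 per gene). The scripts were tested on simulated counts.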

Additional observations from a re-analysis of the deposited data

Results flagged for a closer look

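In 2 of the 16 groups of 4 libraries (8 genes, each in labelled knockout and wild type), 1 library lay far from the other 3, and chance gives about 5% of groups. Over all genes tested this held for 7.35% of labelled knockout groups (4.81% with labelled knockout 3 as the far library) and 5.13% of wild-type groups. Rdh10 was at 14.7 CPM in labelled knockout 3, with the nearest other labelled knockout at 21.6 CPM. Rara was at 38.1 CPM in the same library, with the nearest at 26.1 CPM. Labelled knockout 3 is the library with low spermatid markers and with the most Crisp1 and Adam7 among the 8 libraries. The part of cell makeup or of epididymal transcripts in these values was not tested.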

How the results depend on the processing

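In 120 refits of the 8 genes under alternatives, 0 passed the threshold (smallest adjusted p 0.211), 110 kept their side of 0 and 10 turned. With limma-voom quality weights Stra8 was -0.48, Rdh10 0.043 and Cyp26b1 -0.068. Leaving out 1 library moved the log2 fold change between -0.40 and -0.0063 for Stra8, -0.20 and 0.028 for Aldh1a1, -0.11 and 0.067 for Rdh10, -0.085 and 0.15 for Cyp26b1 and -0.21 and 0.031 for Rara. The other 3 genes kept their side, between 0.0036 and 0.15 for Aldh1a2, 0.084 and 0.22 for Rarg and 0.019 and 0.18 for Stra6. The 56 pathway genes had 0 past the threshold under each alternative, and their median was -0.045 with limma-voom, -0.11 with quality weights and between -0.14 and 0.017 with 1 library left out. Over all genes the threshold was passed by 26 genes without the low-count filter (16 higher, 10 lower), 46 with DESeq2 (23 higher, 23 lower) and 14 with quality weights (9 higher, 5 lower). Leaving out 1 library gave 3 to 35 genes (3 to 23 higher, 0 to 24 lower), with 33 without labelled knockout 1, 35 without labelled knockout 3 and 33 without labelled knockout 4. The cause was not tested. With the longest transcript, levels per kilobase were 199 for Aldh1a1, 5.77 for Rdh10, 11.8 for Cyp26b1, 8.66 for Rara, 1.80 for Rarg and 1.87 for Stra6, which follows from the shorter lengths. Whether replicate numbers pair the samples could not be decided. The correlation of deviations between equal numbers was 0.13, 0.05, -0.05 and 0.04, and 2 of 4 labelled knockouts correlated best with their own number. With the replicate block Stra8 was -0.31, 4 genes passed over all, and no call among the 8 genes changed. Stra6 and Rarg, at 91 to 144 counts per library, are the genes most limited by depth.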
